A study of Mus musculus with 12 samples.

Results

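The 10 genes of the BCL2 family described here are the survival genes Bcl2, Bcl2l1, Bcl2l2 and Mcl1, the pore-forming effector Bak1, and the BH3-only death genes Bid, Bad, Bik, Bcl2l11 and Bmf. They were taken by symbol from the table of deposited values, and all 10 were found among its 47593 genes. RNA had been sequenced from 12 mammary tumors of 9 female MADM-mutant mice on a mixed background, all untreated and of one group, and normal gland was not analysed here. These mice carry the MADM cassettes (the labels give RG;GR alleles) together with mutant alleles of Brca1 and p53, and the MMTV promoter drives Cre in mammary epithelium, so that sporadic recombination leaves single cells without both tumor suppressors amid heterozygous tissue. Tumors keep the numbers 1 to 12 of the labels: tumors 3 and 4 came from one mouse, tumors 10, 11 and 12 from another, and the other 7 mice gave 1 tumor each. Ages were not given for these tumors. Every piece of tumor was homogenized whole, so cancer cells were read together with heterozygous epithelium, stroma and immune cells, and fewer cells of a type cannot be told apart from less RNA per cell.

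BCL2 family proteins decide whether the outer mitochondrial membrane is opened, the committing step of the intrinsic death pathway. Survival proteins (BCL2, BCL-XL from Bcl2l1, BCL-W from Bcl2l2, and MCL1) hold back the effectors BAK and BAX, and BH3-only proteins either occupy the survival proteins or activate the effectors directly, after which cytochrome c leaves the mitochondria and caspases are switched on. In the mammary gland the pathway is known from lumen formation and involution after lactation, and p53 is a well-known activator of several of its death genes. Much of the family's control acts on the proteins, through phosphorylation, cleavage and breakdown, which transcript levels do not show.

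Values are TPM, transcript abundances that divide a gene's reads by its length and scale each tumor to the same total, so levels of different genes can be set side by side. Errors are SDs over n = 9 mice, with tumors of one mouse averaged first. TPM keeps no read numbers, so sequencing depth is unknown for these tumors, and counting errors cannot be given. Nothing in the labels says more of how the mice relate to each other, so spreads and p-values cover these animals only.

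Cell type markers differed between the tumors, as the sums of each list show. The 7 epithelial markers (Cdh1, Epcam, Krt8, Krt18, Krt19, Cldn3 and Cldn7) summed to between 2752 and 7962 TPM in the 9 tumors other than tumors 2, 8 and 9, to 3006 TPM in tumor 9, to 159 TPM in tumor 8 and to 1.38 TPM in tumor 2, where 2 of the 7 were at 0. The labelled mammary epithelial origin is thus nearly without marker transcripts in tumor 2. Its 9 B lymphocyte markers summed to 9483 TPM, against 618 TPM in tumor 9 and 34.4 to 287 TPM elsewhere (50.1 TPM in tumor 8). In tumor 8 the 7 mesenchymal markers summed to 4368 TPM, against at most 1685 TPM in any other tumor, and its macrophage, fibroblast and endothelial sums, 5439, 3115 and 167 TPM, were also the highest of the 12. In the sister tumors 3 and 4 the 5 skeletal muscle markers summed to 365 and 245 TPM, against at most 62.8 TPM elsewhere, and tumor 4 had the highest adipocyte sum, 351 TPM, and the second-highest fibroblast sum, 2851 TPM. Tumor 9 had the highest T lymphocyte sum, 171 TPM against 6.89 to 98.6 TPM, and the lowest proliferation sum, 196 TPM against 518 to 1167 TPM. The part of these marker differences in the results was not tested.

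The sequences shown are the promoters of Bcl2, Bcl2l1 and Bcl2l11, because these 3 genes had their 3 lowest levels in the same 3 tumors, as described below. They are RefSeq entries on GRCm38.p6, from 250 bases before to 50 bases after the transcription start, written 5′ to 3′ on the strand of the gene. Capitals mark GC boxes, searched as GGGCGG on both strands (CCGCCC is the same box read from the other strand).
Bcl2, chr1:106714241-106714540, minus strand: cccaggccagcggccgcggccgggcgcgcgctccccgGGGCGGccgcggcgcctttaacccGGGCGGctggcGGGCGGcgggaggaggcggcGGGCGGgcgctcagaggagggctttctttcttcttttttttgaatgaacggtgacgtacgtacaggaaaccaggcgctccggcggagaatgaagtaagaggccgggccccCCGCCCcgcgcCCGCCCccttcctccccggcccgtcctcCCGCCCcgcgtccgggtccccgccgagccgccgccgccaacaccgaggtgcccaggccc
Bcl2l11, chr2:128125788-128126087, plus strand: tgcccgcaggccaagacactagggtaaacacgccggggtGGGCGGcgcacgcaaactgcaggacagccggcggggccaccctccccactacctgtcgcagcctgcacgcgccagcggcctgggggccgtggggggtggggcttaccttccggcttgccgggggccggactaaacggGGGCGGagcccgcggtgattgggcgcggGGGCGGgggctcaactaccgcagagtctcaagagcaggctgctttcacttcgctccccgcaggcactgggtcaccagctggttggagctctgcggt
Bcl2l1, chr2:152831679-152831978, minus strand: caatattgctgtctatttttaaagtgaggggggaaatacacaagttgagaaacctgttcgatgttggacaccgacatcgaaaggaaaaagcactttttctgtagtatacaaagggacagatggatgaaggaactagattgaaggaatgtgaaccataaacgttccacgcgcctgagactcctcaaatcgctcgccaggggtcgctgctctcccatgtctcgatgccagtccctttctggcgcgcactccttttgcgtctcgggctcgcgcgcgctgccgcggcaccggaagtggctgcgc
The Bcl2 window held 7 GC boxes at 76% GC, the Bcl2l11 window held 3 at 71% GC, and the Bcl2l1 window held 0 at 52.3% GC, close to the median of 52.7% over all 32851 promoter entries. Thus the 3 genes that were low together did not share this motif in these windows. Of all promoter entries 35.7% held a GC box, as did 8 of the 15 entries that belong to 9 of the 10 members. These are matches of letters only.

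Among the survival genes, Mcl1 was the most abundant in every tumor. Mcl1 encodes a short-lived protein that restrains BAK and BIM, and the gene (ENSMUSG00000038612, GRCm38, chromosome 3 from 95658788 to 95663176, plus strand) had 147 ± 40.1 TPM. Its lowest level was 95.7 TPM in tumor 2, its median 129.8 TPM and its highest 210 TPM in tumor 6, with tumor 8 next at 205 TPM. Its range over the 12 tumors was 2.19-fold, and its mean exceeded that of 93.5% of the 16779 expressed genes, those with a mean of 1 TPM or more.

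Bcl2l1 was second (ENSMUSG00000007659, chromosome 2 from 152780668 to 152831728, minus strand), at 84.3 ± 38.9 TPM. The gene gives rise to BCL-XL, a survival protein of many epithelia, and its splice forms are summed in a gene value. Single tumors ran from 26.8 TPM in tumor 2 over a median of 80.2 TPM to 135 TPM in tumor 1. Tumors 9 and 8 were next to the lowest, at 39.3 and 49.9 TPM, and the other 9 lay between 66.8 and 135 TPM. With the 3 tumors the range was 5.05-fold, and without them 2.02-fold.

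Bcl2l2 (ENSMUSG00000089682, chromosome 14 from 54883377 to 54888234, plus strand) varied little, at 35.5 ± 6.52 TPM. Tumors 3 and 4, from one mouse, were the lowest at 24.3 and 25.2 TPM, the median was 36.3 TPM and tumor 1 was the highest at 44.9 TPM. A protein-coding model on the same strand, Gm20521, overlaps Bcl2l2 and the next gene, Pabpn1. It had between 14.0 and 48.1 TPM in 5 tumors and was listed at 0 in the other 7, so how reads were divided between it and Bcl2l2 is uncertain.

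Bcl2 itself, best known from lymphoid cells (ENSMUSG00000057329, chromosome 1 from 106538178 to 106714274, minus strand), was the least abundant survival gene at 11.0 ± 5.77 TPM. It ran from 1.63 TPM in tumor 2 over a median of 12.5 TPM to 18.4 TPM in tumor 7. Tumors 8 and 9 followed tumor 2 at 4.57 and 6.47 TPM, and the remaining 9 tumors, between 9.66 and 18.4 TPM, did not overlap with these 3. The tumor with the most B lymphocyte marker RNA therefore had the least Bcl2.

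**Figure D1:**
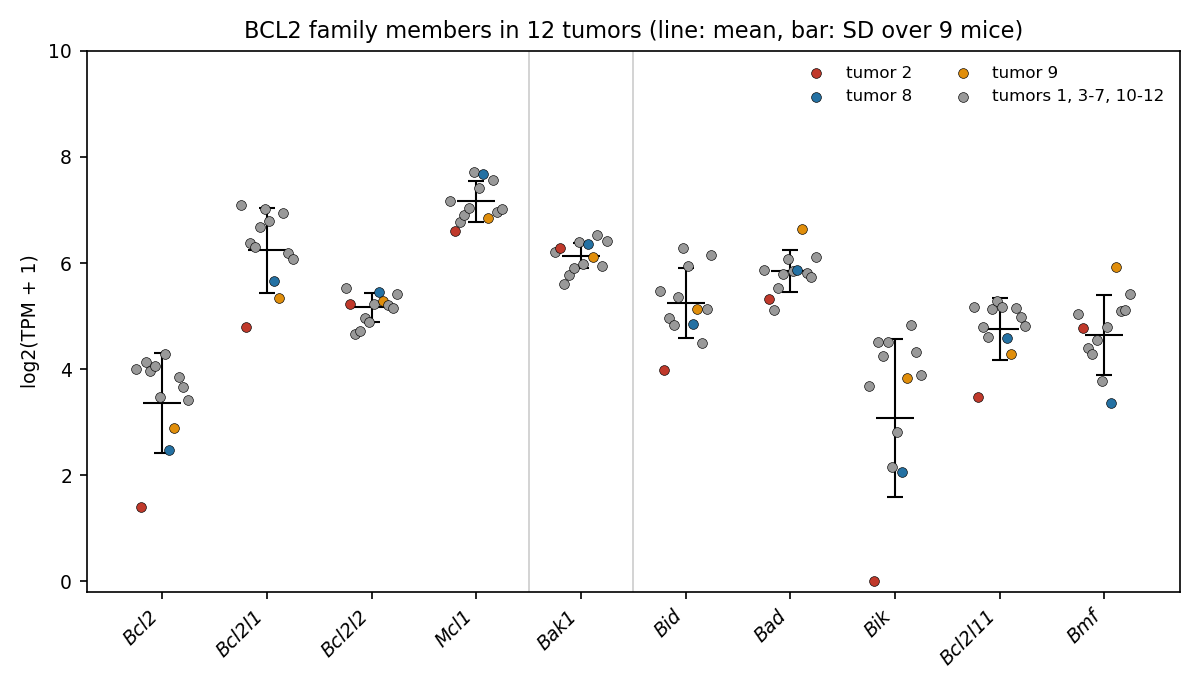
Each point is 1 tumor, with log2(TPM + 1) on the vertical axis and the 10 members grouped as survival genes, effector and BH3-only genes. Tumors 2, 8 and 9 are colored, horizontal lines are means and bars SDs over 9 mice, and the 3 colored points lie lowest for Bcl2, Bcl2l1 and Bcl2l11 but within the others for Bak1.

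Bak1, which encodes the pore-forming effector BAK (ENSMUSG00000057789, chromosome 17 from 27019810 to 27029009, minus strand), was the steadiest member, at 70.3 ± 11.0 TPM. Tumors 3 and 4 were again the lowest at 47.8 and 54.0 TPM, the median was 70.7 TPM and tumor 10 the highest at 90.7 TPM. Its SD over mice of log2(TPM + 1) was 0.23, against a median of 0.57 over expressed genes and 0.62 over the 10 members. Tumors 2, 8 and 9, at 76.5, 80.9 and 68.1 TPM, lay inside the range of the others.

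Bad encodes a BH3-only protein that growth factor signaling phosphorylates and thereby silences. It was the most abundant death gene of the BH3-only class (ENSMUSG00000024959, chromosome 19 from 6941861 to 6951899, plus strand), at 58.7 ± 17.6 TPM. Tumor 3 was the lowest at 33.5 TPM, the median was 56.0 TPM and tumor 9 the highest at 98.9 TPM, with tumor 12 next at 68.2 TPM. Tumor 9 alone thus lay above a range of 2.04-fold that held the 9 tumors other than 2, 8 and 9.

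Bid encodes a protein that caspase-8 cleaves, linking death receptors to mitochondria (ENSMUSG00000004446, chromosome 6 from 120891930 to 120916853, minus strand), and had 40.9 ± 18.4 TPM. It ran from 14.8 TPM in tumor 2 over a median of 34.0 TPM to 76.6 TPM in tumor 6. Tumors of one mouse spanned much of that range, since tumors 10, 11 and 12 had 21.4, 33.9 and 69.8 TPM.

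Bcl2l11 encodes BIM, an activator that binds every survival protein (ENSMUSG00000027381, chromosome 2 from 128126038 to 128162547, plus strand), and had 27.7 ± 9.25 TPM. Tumor 2 was the lowest at 10.1 TPM, the median was 29.0 TPM and tumor 6 the highest at 38.0 TPM. Tumors 9 and 8 came next to tumor 2, at 18.6 and 22.9 TPM, and the other 9 tumors lay above them within a 1.62-fold range.

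Bmf encodes a BH3-only protein tied to detachment of epithelial cells from their matrix (ENSMUSG00000040093, chromosome 2 from 118528757 to 118549687, minus strand), and had 27.2 ± 15.0 TPM. It had its lowest value, 9.34 TPM, in tumor 8, a median of 26.5 TPM and its highest value, 59.9 TPM, in tumor 9. In these 2 tumors Bmf stood at opposite ends, although both were among the 3 lowest for Bcl2, Bcl2l1 and Bcl2l11.

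Bik, a BH3-only gene whose product sits largely at the endoplasmic reticulum (ENSMUSG00000016758, chromosome 15 from 83526862 to 83544634, plus strand), varied most, with an SD of 1.49 on the log2(TPM + 1) scale and 11.1 ± 8.30 TPM. It was listed at 0 in tumor 2, had 3.20 TPM in tumor 8, 3.44 TPM in tumor 6, a median of 13.6 TPM and a highest value of 27.6 TPM in tumor 10. Leaving out tumors 2, 8 and 9 left a range of 8.02-fold, so for Bik those tumors did not set the spread alone.

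Some values carry an annotation limit. On the opposite strand Ggnbp1 overlaps Bak1, Bcl2l13 overlaps Bid and Gpr137 overlaps Bad. The libraries were stranded, but whether strand was used in quantification was not given in the sources used here, so reads of these partners may be mixed.

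Put in order by the mean of log2(TPM + 1) over mice, the genes ran Mcl1, Bcl2l1, Bak1, Bad, Bid, Bcl2l2, Bcl2l11, Bmf, Bcl2 and Bik. Only 3 of the 9 steps between neighbours exceeded their own SD over mice: Mcl1 over Bcl2l1 by 0.93 ± 0.68 (higher in 9 of 9 mice), Bad over Bid by 0.61 ± 0.59 (7 of 9) and Bmf over Bcl2 by 1.28 ± 1.17 (9 of 9). The other 6 neighbouring pairs did not differ beyond their SD, although Bak1 exceeded Bad in 8 of 9 mice. By mean TPM of the tumors 6 of the 10 members kept their rank, while Bmf and Bcl2l11, and Bik and Bcl2, changed places.

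Differences between gene pairs within a mouse were tested for 4 pairs by exact two-sided sign-flip permutation, whose smallest p over 9 mice is 0.0039, with Benjamini-Hochberg adjustment over the 4. Mcl1 exceeded Bcl2l1 by 0.93 ± 0.68 on the log2(TPM + 1) scale, a ratio of 1.90, in 9 of 9 mice (exact permutation test, p = 0.0039, adjusted p = 0.0052). Single mice ran from 0.07 to 2.02, so the gap ranged from nearly none in tumor 1 to its widest in tumor 8. Against Bcl2, Mcl1 was higher by 3.80 ± 0.92 and Bcl2l1 by 2.87 ± 0.45, each in 9 of 9 mice and each with the same p and adjusted p (exact permutation tests). Without tumors 2, 8 and 9 the 3 differences were 0.50, 3.31 and 2.80 over 6 mice (exact permutation tests, p = 0.031, adjusted p = 0.042). That p is the smallest possible over 6 mice and was fixed by the positive sign in every mouse. The kept calls are thus no further support.

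Bak1 was set against Bax, another effector, which had 96.9 ± 20.3 TPM (65.5 TPM in tumor 1 to 127 TPM in tumor 5). Bak1 was lower than Bax by a log2 difference of -0.45 ± 0.47, in 6 of 9 mice (exact permutation test, p = 0.031, adjusted p = 0.031), and slightly higher in the other 3. The call does not hold with 1 mouse fewer in 6 of the 9 cases: leaving out the mouse of tumor 2, of tumors 3 and 4, of tumor 5, of tumor 7, of tumor 9 or of tumors 10, 11 and 12 gave p = 0.0625 (exact permutation tests over 8 mice), with differences between -0.45 and -0.36 in these cases.

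Summed by role, the 4 survival genes reached 278 ± 70.1 TPM and the 5 BH3-only genes 166 ± 42.4 TPM. The survival sum ran from 161 TPM in tumor 2 over a median of 263 TPM to 378 TPM in tumor 6, and the BH3-only sum from 90.4 TPM in tumor 2 over 172 TPM to 225 TPM in tumor 9. As both sums were lowest in tumor 2, its ratio of survival to BH3-only transcripts, 1.78, was near the median of 1.78. The ratio was 1.74 ± 0.42 over mice, highest at 2.50 in tumor 8, and 0.879 in tumor 9, which was the only tumor of the 12 in which the BH3-only sum exceeded the survival sum. Tumor 12 came closest at 1.12. Without tumors 2, 8 and 9 the ratio was 1.75 ± 0.15 over 6 mice, and no single tumor was under 1.12. The place of tumor 9 depends on which genes are summed: with the survival genes Bcl2a1a, Bcl2a1b and Bcl2a1d, which are no members and are described below, its survival sum was 1880 TPM and its ratio 8.37, the highest of the 12 tumors, against 1.55 to 4.11 in the others. A sum of transcripts is not a balance of proteins.

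**Figure D2:**
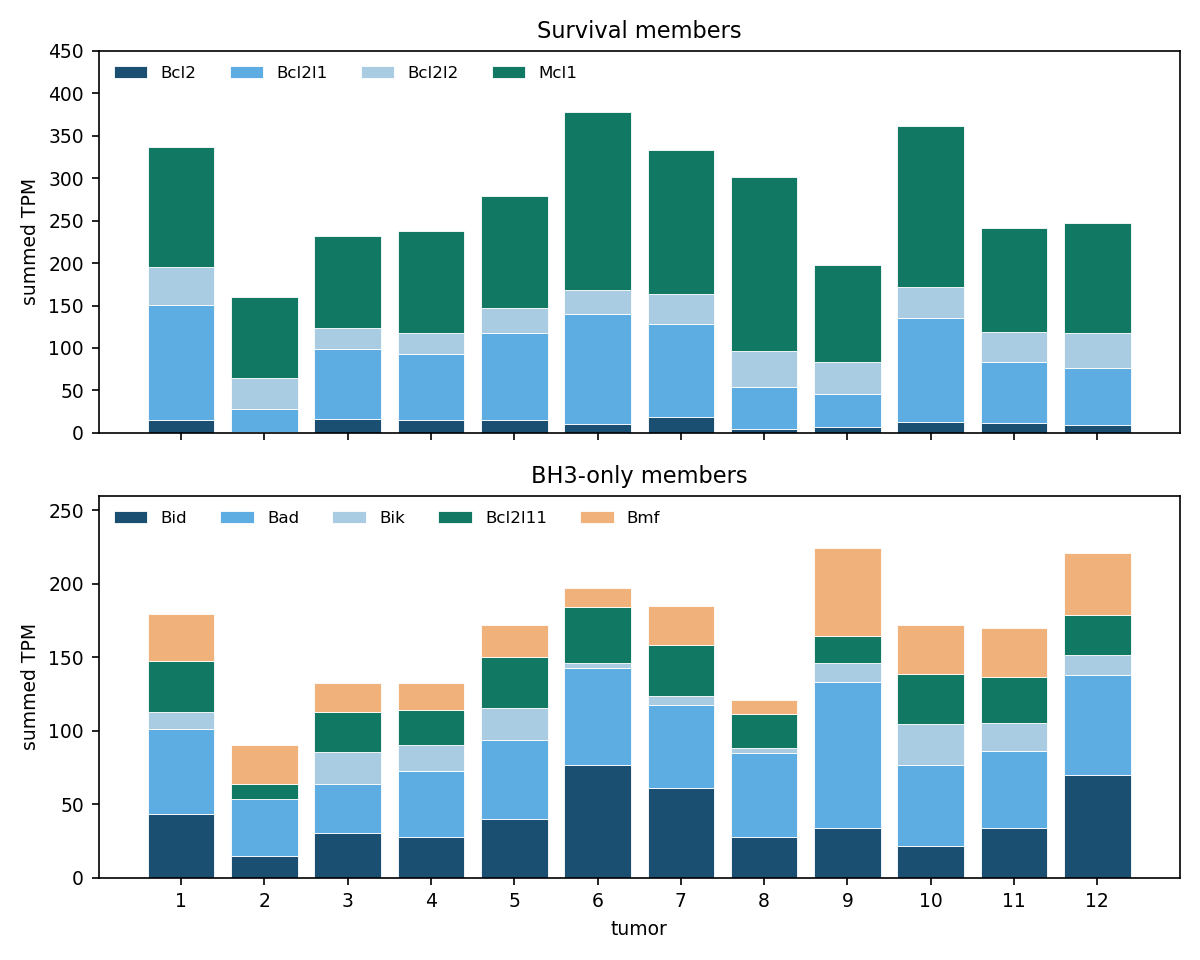
Stacked bars give summed TPM in tumors 1 to 12, with the 4 survival genes above and the 5 BH3-only genes below, each color being 1 gene. Mcl1 fills the largest part of each survival bar, and tumor 9 has the tallest BH3-only bar.

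The make-up of the survival sum varied as well. Mcl1 supplied 42.1% of it in tumor 1 and 67.9% in tumor 8, and Bcl2l1 40.1% and 16.5% in the same 2 tumors. Bcl2l1 stood at 0.951 of the Mcl1 level in tumor 1 and at 0.244, 0.280 and 0.345 of it in tumors 8, 2 and 9, against 0.519 or more in each of the other tumors. Bcl2 never passed 7.15% of the sum. In the BH3-only sum, Bad was 25.2% to 47.5%, and Bmf 6.46% in tumor 6 to 29.2% in tumor 2.

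Which tumor was the lowest for a gene was compared with all expressed genes. Among the 10 members, 6 (Bcl2, Bcl2l1, Mcl1, Bid, Bik and Bcl2l11), were lowest in tumor 2, as were 31.3% of the 16779 expressed genes, and 0 members were highest there, against 20.4%. Tumor 3 was the lowest for 3 members (Bcl2l2, Bak1 and Bad), against 6.26% of expressed genes. This is one of the tumors with skeletal muscle marker RNA. Tumors 2, 8 and 9 were the 3 lowest for 3 members (Bcl2, Bcl2l1 and Bcl2l11), against 5.22% of expressed genes. These shares describe 10 genes that are no independent sample, and no test was made of them. Tumor 9 was the highest for Bad and Bmf, 2 members, against 14.1%, and the lowest for 0 members, against 20.7%. Of the other tumors, tumor 6 was the highest for 3 members (Mcl1, Bid and Bcl2l11; 5.51% of expressed genes), tumors 1 and 10 for 2 each (6.17% and 4.52%) and tumor 7 for 1 (9.14%), and tumor 8 was the lowest for 1 member (Bmf; 8.21%).

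**Figure D3:**
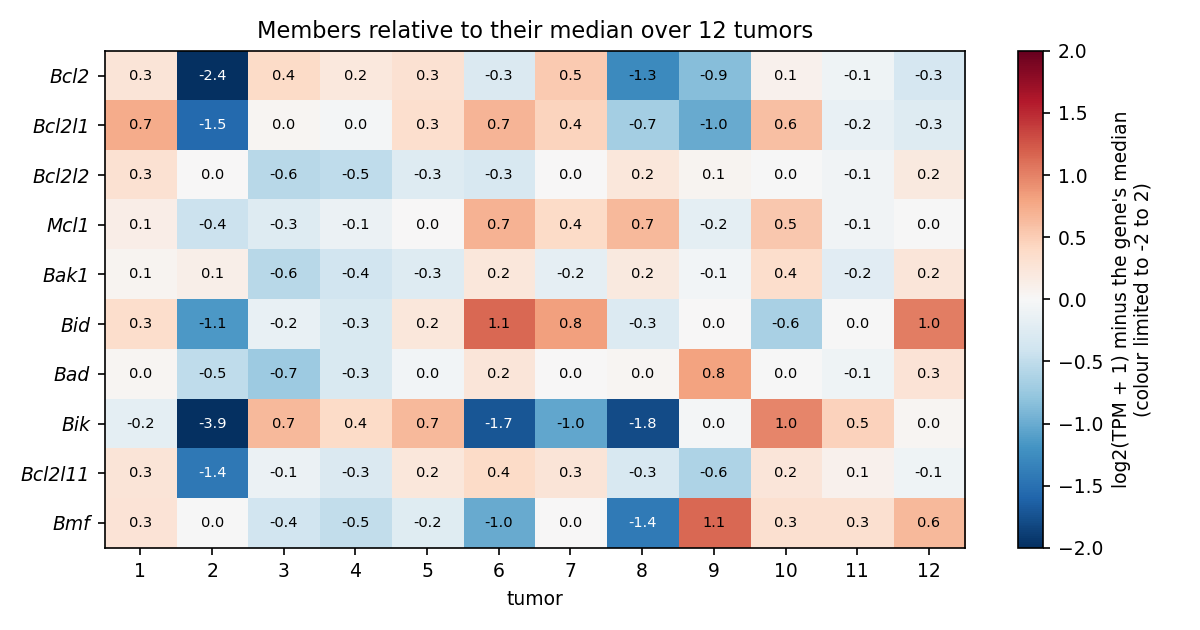
Colors give, for each member (rows) and tumor (columns), the difference of log2(TPM + 1) from the gene's median over the 12 tumors, written in each cell, with colors limited to differences between -2 and 2. Tumor 2 is the lowest for 6 members, and tumor 9 is low for Bcl2, Bcl2l1 and Bcl2l11 and high for Bad and Bmf.

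Sister tumors of one mouse were compared with tumors of different mice through the absolute difference of log2(TPM + 1), averaged over 4 and 62 pairs of tumors. Bmf differed by 0.19 within a mouse and by 0.85 between mice, Bcl2 by 0.26 and 0.94, Bcl2l11 by 0.21 and 0.57, and Bik by 0.54 and 1.60. Bak1 differed as much within as between mice, by 0.33 and 0.34, and Bid was the only member with a wider gap within a mouse, 0.87 against 0.79. The median over expressed genes was 0.31 within and 0.63 between. Without tumors 2, 8 and 9, which left 32 pairs between mice, the gap between mice was 0.37 for Bcl2, 0.27 for Bcl2l11 and 0.46 for Bcl2l1, close to their gaps within a mouse of 0.26, 0.21 and 0.45. Tumors 2, 8 and 9 were the 3 lowest for these 3 genes, and each came from a mouse with 1 tumor. Leaving them out therefore narrows the gaps between mice of these genes by construction and cannot change those within a mouse. The contrast with other members partly follows from this choice. Bmf, Bik and Bcl2l2 kept wider gaps between mice, 0.66, 1.05 and 0.39, than within a mouse, 0.19, 0.54 and 0.14, and the median over expressed genes was 0.47. Only 2 mice supply the pairs within a mouse, 3 of the 4 coming from tumors 10, 11 and 12.

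**Figure D4:**
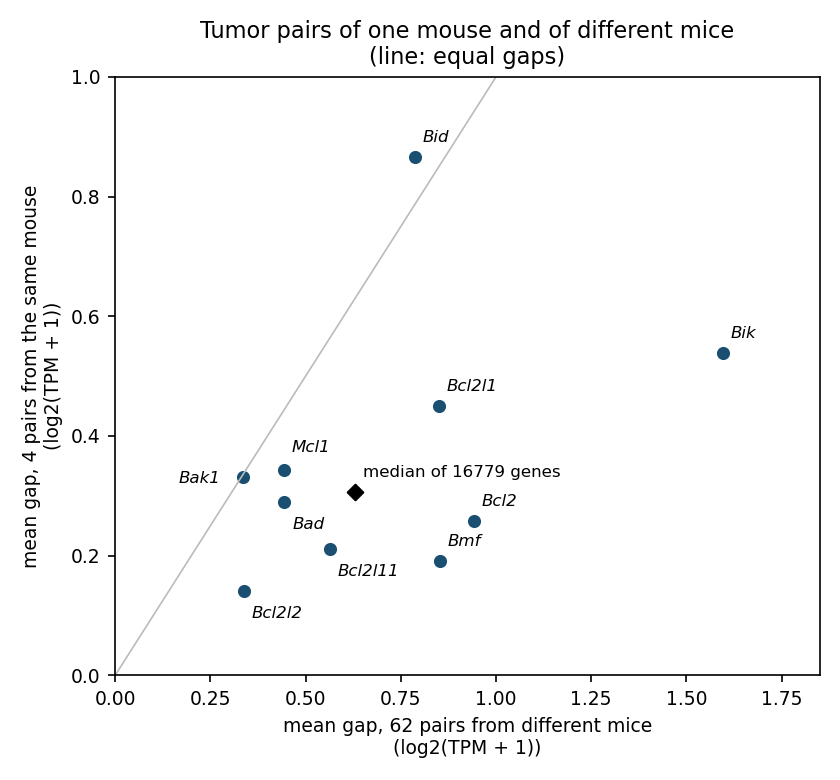
Each point is 1 member, with the mean absolute log2(TPM + 1) difference of tumor pairs from different mice on the horizontal axis and of pairs from the same mouse on the vertical axis. Bid lies above the line of equal gaps, Bak1 close to it, and the other 8 members below it, as does the median of all expressed genes.

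Whether genes differed between mice was tested with limma's moderated F test over all 16779 expressed genes, with the mouse as a factor and Benjamini-Hochberg adjustment. Of these genes 7204, or 42.9%, passed an adjusted p of 0.05, and 5 of the 10 members did, a share near that of all genes and so no result about the members. The 5 were Bik (limma adjusted p = 0.010), Bmf (0.012), Bcl2 (0.013), Bcl2l11 (0.027) and Bcl2l1 (0.049). Bad (adjusted p = 0.093), Bcl2l2 (0.093), Mcl1 (0.16), Bak1 (0.32) and Bid (0.33) did not pass. The spread within a mouse comes from 2 mice with 3 residual degrees of freedom in all. Without tumor 2 only Bik and Bmf passed, and without tumor 3, without tumor 4, or without tumors 2, 8 and 9 together, 0 members passed, while 4, 4 and 3 of them had an unadjusted p under 0.05 in limma, as did 39.8%, 41.1% and 29.8% of all expressed genes. The share of all expressed genes that passed fell as well, to 22.9% without tumor 2, 12.2% and 12.6% without tumors 3 and 4, 23.9% without tumor 11 and 1.42% without tumors 2, 8 and 9. The call of Bcl2l1 was lost in 11 of 18 alternatives, among them a pseudocount of 0.1 (limma adjusted p = 0.0503), rescaling without mitochondrial genes (0.0501) and centring by tumor medians (0.054). Without tumor 10 Mcl1 passed (limma adjusted p = 0.020), in a fit that called 62.0% of all expressed genes and 6 of the 10 members.

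Of 14 other genes of the family, 12 had a mean of 1 TPM or more and 9 of these passed the limma test, against 42.9% of all expressed genes. The list's median of mean levels was 24.2 TPM. Bcl2l10 was listed at 0 in all 12 tumors. Its highest mean was that of Bcl2a1b, at 141 ± 251 TPM, and its widest spread on the log2 scale was that of Bcl2a1d, both survival genes known from blood cells. Bcl2a1b had 807 TPM in tumor 9, at most 95.8 TPM in any other tumor and 4.94 TPM in tumor 2. Bcl2a1d had 538 TPM in tumor 9, at most 40.9 TPM elsewhere and 0.842 TPM in tumor 2, and Bcl2a1a, chosen after its values were seen, had 336, at most 61.2 and 1.54 TPM. The 3 copies are near-identical, so the division of reads among them is uncertain. Of the 12 expressed genes, 7 were highest in tumor 9, against 14.1% of all expressed genes. The 3 Bcl2a1 copies are among these 7, so the 7 are no independent sample. Of the 14 genes, 5 were lowest in tumor 2, against 31.3% of expressed genes. The 5 include the 3 copies and Hrk, which was also listed at 0 in other tumors.

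Of 15 genes of the caspase pathway, all 15 were expressed and 4 passed (Casp9, Htra2, Birc2 and Birc3), again against 42.9%. In this list 4 genes were highest in tumor 9, against 14.1% of expressed genes, and 4 were lowest in tumor 2, against 31.3%. The nuclease gene Endog had the lowest mean, 4.53 ± 1.28 TPM. Birc3, an inhibitor of apoptosis and NF-κB target, had the widest spread, from 26.7 TPM in tumor 2 to 404 TPM in tumor 9, with at most 148 TPM in any other tumor.

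Of 16 genes whose products act on members, such as kinases, ubiquitin enzymes and transcription factors, all 16 were expressed and 6 passed (Usp9x, Foxo3, Jun, Stat3, Rela and Akt1), against 42.9%. In this list 0 genes were highest in tumor 9, against 14.1% of expressed genes, and 8 were lowest in tumor 2, against 31.3%. Ywhae, a 14-3-3 protein gene whose product holds phosphorylated BAD, had the highest mean, 440 ± 90.3 TPM. Foxo1, a transcription factor gene, had the lowest, 13.3 ± 5.33 TPM, and Jun the widest spread, from 6.46 TPM in tumor 2 to 141 TPM in tumor 3. Without tumors 2, 8 and 9, limma called 0 genes of each of the 3 lists, with 4 of 12, 2 of 15 and 5 of 16 genes at an unadjusted p under 0.05, against 29.8% of all expressed genes. With 1 tumor left out the calls ranged from 4 to 10 for the other family genes, from 2 to 9 for the caspase pathway and from 1 to 10 for the genes acting on members, with the lowest number of each list reached without tumor 3 and the highest without tumor 10, the settings at which 12.2% and 62.0% of all expressed genes passed.

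**Figure D5:**
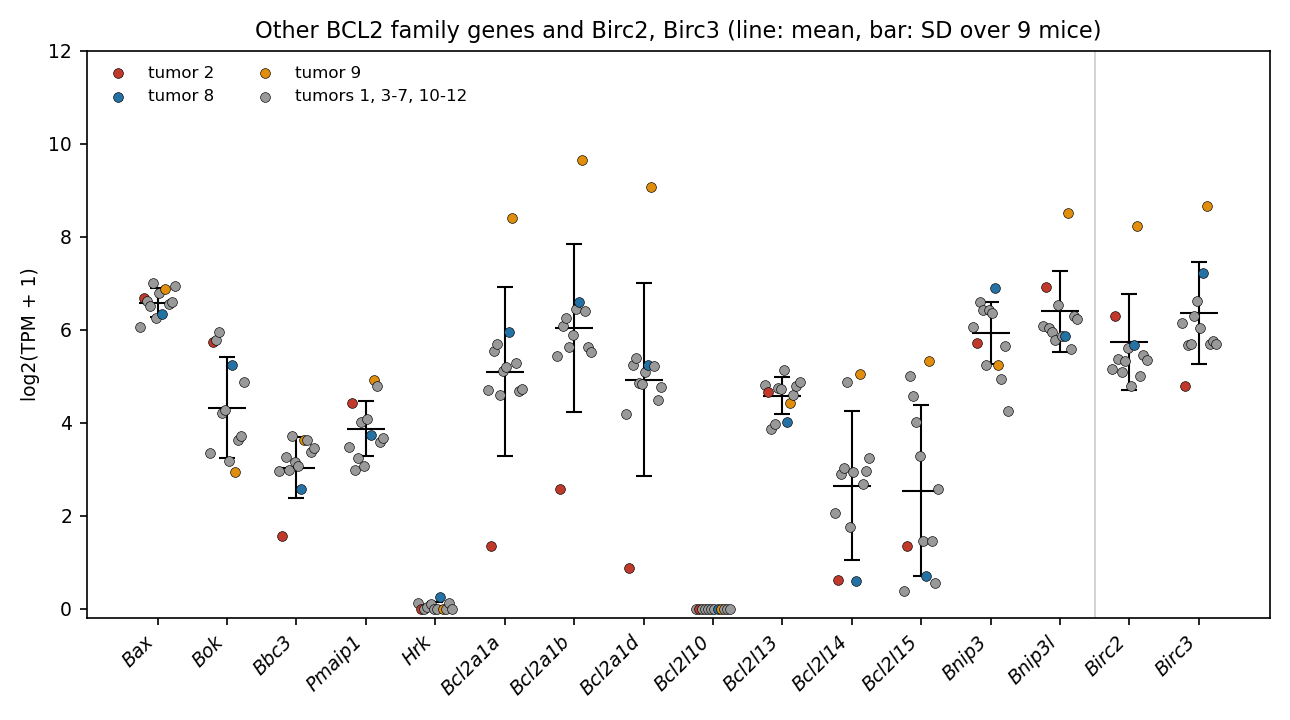
Each point is 1 tumor, with log2(TPM + 1) on the vertical axis, for the 14 other family genes and, right of the vertical line, Birc2 and Birc3, with tumors 2, 8 and 9 colored and means and SDs over 9 mice as lines and bars. The point of tumor 9 lies above all others for the 3 Bcl2a1 genes, Bnip3l, Birc2 and Birc3 and, by less, for Pmaip1, Bcl2l14 and Bcl2l15.

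The levels of the members were set beside their chromosomal neighbourhood, as differences of log2(TPM + 1) from the median tumor. Values for neighbours are medians over the 5 expressed genes on each side. In tumor 9 Bad stood 0.81 above its median and its 10 neighbours 0.80. Not all 10 rose there: Ppp1r14b had 85.1 TPM in tumor 9, its lowest value of the 12 tumors, and Plcb3 had 37.8 TPM, against up to 94.0 TPM elsewhere. Mcl1 stood 0.69 above its median in tumor 6 with its neighbours at 0.50, but 0.65 above it in tumor 8 with its neighbours at 0.02. In tumor 2 Bcl2 was at -2.36 and its neighbours at -1.05, Bcl2l1 at -1.55 and -0.55, Bcl2l11 at -1.43 and -0.96, Bid at -1.14 and -0.67, and Bik at -3.87 and -0.60. In tumors 8 and 9 Bcl2 was at -1.28 and -0.86 with its neighbours at -0.08 and -0.34. Bcl2l1 was at -0.67 and -1.01 with 0.23 and -0.14, and Bcl2l11 at -0.32 and -0.61 with -0.10 and -0.31. These 3 genes were picked as low in these tumors, and a median over 10 genes tends to lie nearer to 0 than a single gene. The smaller values of the neighbours are thus no sign that the low levels belong to the genes alone. Not every member had neighbours closer to 0: Bid was at -0.28 and 0.00 in tumors 8 and 9 with its neighbours at -0.66 and 0.39. Mcl1, also lowest in tumor 2, was at -0.44 there while its neighbours stood at 0.32. Bmf in tumor 9 stood at 1.15 while its neighbours were at -0.33. Copy number was not analysed here.

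Genes with the most similar pattern were sought for each member by Pearson's r of log2(TPM + 1) over the 9 mice, among genes with a mean of 10 TPM or more. For Bcl2 they were Pkp4 (r = 0.986), Tspan7 and Ccdc120, for Bcl2l1 Rara (0.980), Arhgef5 and Rab40c, and for Mcl1 Arnt (0.943), Mgat4b and Slc39a7. Arnt lies on chromosome 3, 162 kb from Mcl1. Bad was most like Cmtr1 (0.960), Atg2a and Tmem134, of which the last 2 lie on its chromosome 19, 680 and 2810 kb away. For Bid they were Aph1a (0.971), Fbxl4 and Wasl, and for Bik Arhgap35 (0.980), Mtus1 and Prrg2. Over the 6 mice left without tumors 2, 8 and 9, the 3 most similar genes of each member were other genes, with 0 of 3 shared for all 10 members, so these likenesses rest on which mice are included. They are descriptions over few points that share a library each.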

How the data were processed

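The data are RNA levels in 12 mammary tumors of 9 mice. The authors made stranded mRNA libraries from about 50 mg of tissue, trimmed adapters with fastq-mcf, used HISAT2 to align the read pairs to GRCm38 transcripts and deposited TPM values from StringTie (version 2.1.6), 1 per Ensembl gene and tumor, with no pooling. How transcripts were summed per gene was not given in the sources used here. TPM holds no read number, so depth and counting precision are unknown, count models were not used, and a few very abundant genes lower all others in a tumor.

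From these values log2(TPM + 1) was computed, with a pseudocount of 1 that understates changes of low genes, and tumors of one mouse were averaged. Genes with a mean of 1 TPM or more were tested with limma (version 3.58.1, R 4.3.3), with mean-dependent prior variance, and gene pairs with exact sign-flip permutation (Python 3.11.15, numpy 2.4.6, pandas 2.3.3, matplotlib 3.10.9). Both were tested on simulated data. Alternatives were a pseudocount of 0.1, other filters, each tumor as a unit for the pairs and levels, rescaling without the 37 mitochondrial genes, centring by tumor medians, and leaving out each tumor or mouse. Leaving out tumors 2, 8 and 9 together, and adding the Bcl2a1 genes to the survival sum, were chosen after seeing the data. Coordinates came from GENCODE vM21, which placed 47137 of the 47593 identifiers, and promoters from RefSeq. The rule for named genes gave all members, the genes with the highest mean, lowest mean and widest spread in each other list, Bax, and the 3 genes most like each member, of which those of Bcl2l2, Bak1, Bcl2l11 and Bmf are left out for length, and 1 gene that the rule names is not reported here. Genes named because they passed the limma test in a list, neighbouring and overlapping genes, and the high genes of tumor 9 lie outside that rule and were chosen after their values were seen. The members and lists were chosen with earlier results of these data known.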

Additional observations from a re-analysis of the deposited data

Results flagged for a closer look

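The log2 ratio of the summed survival genes to the summed BH3-only genes was -0.19 in tumor 9, while the nearest of the other 8 mice was at 0.58, a gap wide for the range of the 9 values by Dixon's ratio at the 95% level. That nearest value is the mean of tumors 10, 11 and 12, of which tumor 12 alone was at 0.16 and tumor 11 at 0.51, so the width of the gap rests on averaging the tumors of a mouse. It was 1 of 26 quantities examined in this way, some of which overlap, as members, their differences and their sums do. The rate of about 5% flagged by chance holds only for normally distributed values. In these data the same cut flagged 18.5% of the 16779 expressed genes, so a flag is not rare. None of the 10 members was flagged by itself (0 of 10). Tumor 9 was also the tumor with the highest T lymphocyte and the second-highest B lymphocyte marker sums, 171 and 618 TPM, and the lowest proliferation sum, 196 TPM. Their part in the ratio was not tested. The low ratio also depends on the genes summed: with Bcl2a1a, Bcl2a1b and Bcl2a1d, which together had 1682 TPM in tumor 9, among the survival genes, the log2 ratio of tumor 9 was 3.06, the highest of the 12 tumors.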

How the results depend on the processing

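The mean level of each member moved by less than its SD over mice in 110 of 110 alternatives. Most of these leave out 1 of the 9 mice, which by construction moves a mean by less than that SD. The count is therefore no support. For gene pairs, 45 of 52 alternatives kept the call, including every alternative for the 3 pairs among Mcl1, Bcl2l1 and Bcl2. As these 3 differences were positive in 9 of 9 mice, leaving out mice could not lose their calls. The 7 lost calls belong to Bak1 minus Bax, which lay between -0.52 and -0.36 when mice were left out in turn and was -0.48 without tumors 2, 8 and 9 (exact permutation test over 6 mice, p = 0.125). Of 180 alternatives for single members in the limma test, 153 kept their side of the threshold. The number of genes differing between mice, 7204, ranged from 2053 to 10407 with each tumor left out, with 3841 without tumor 2, 2053 without tumor 3, 2107 without tumor 4 and 4014 without tumor 11, and was 238 (1.42% of those tested) without tumors 2, 8 and 9 together. Leaving out tumor 3 or 4 removes 1 of the 2 mice that give a spread within a mouse, by construction, and the cause of the other changes was not tested. The log2 ratio of survival to BH3-only genes in tumor 9, -0.19, turned to 3.06 with the 3 Bcl2a1 genes added, by construction, an alternative chosen after seeing the data. With unknown depth, it is not known whether a value listed at 0, such as that of Bik in tumor 2, means absence. No paired analysis was possible because the tumors form 1 group, that is, none of samples paired across groups, beside the tests of gene pairs within a mouse.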

Other observations

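Birc2 and Birc3, inhibitor of apoptosis genes that lie side by side on chromosome 9, were both far higher in tumor 9 than elsewhere. Birc2 (GRCm38, chromosome 9 from 7818227 to 7837064) had 300 TPM there and at most 77.2 TPM in any other tumor, and Birc3 (7848699 to 7873186) had 404 and at most 148 TPM. The neighbours Tmem123 (7764041 to 7794333), at 732 against at most 138 TPM, and Mmp7 (7692090 to 7699585), at 82.3 against at most 4.62 TPM, were also highest in tumor 9. Not all neighbours were: Gm10709, between Mmp7 and Tmem123, had 73.2 TPM in tumor 9 and up to 168 TPM elsewhere, Mmp8 and Mmp10 were listed at 0 in tumor 9, and the median difference of 10 neighbouring genes from the median tumor was -0.34 for Birc2 and 0.08 for Birc3. Yap1, next on the other side (7931999 to 8004596), had 46.3 TPM there and 21.5 to 157 TPM elsewhere, so it did not share the high level. Further along the chromosome, Bcl2a1a (88956900 to 88962419), Mthfs and Ctsh were likewise highest in tumor 9, with 336, 136 and 1711 TPM against at most 61.2, 43.1 and 358 TPM. Tmed3, between Mthfs and Ctsh, was not: it had 118 TPM in tumor 9 and 291 TPM in tumor 8, and the neighbouring 4930579C12Rik and Morf4l1 were highest in tumors 8 and 12. The median difference of the 10 neighbours of Bcl2a1b from the median tumor was 2.73 in tumor 9. These 10 include the near-identical Bcl2a1a and Gm29094, whose position overlaps Bcl2a1b, so reads may be shared. Gm24463, Gm19498, Trim43b and Gm29094 were also highest in tumor 9 but low elsewhere, with at most 2.91, 8.24, 2.40 and 2.50 TPM. Bnip3l on chromosome 14, a mitophagy gene, had 361 TPM in tumor 9 and at most 119 TPM elsewhere. These genes were chosen after their values were seen, and copy number was not analysed here.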
